A study of Mus musculus with 36 samples.

Results

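Among 36 lung arrays, 12 carried a strong signal of Acta1, the actin of skeletal muscle fibres, and these 12 muscle arrays fell into 8 that also carried Krt13, a keratin of stratified squamous epithelium, and 4 that did not. An array was taken as a muscle array when the log2 raw Cy5 signal of its Acta1 probe was over 10, and as squamous when that of its Krt13 probe was over 10 as well. Where a gene had several probes, the probe with the highest mean signal was used. The 8 squamous arrays came from 7 mice, the 4 muscle-only arrays from 4 mice, and the other 24 arrays from 19 mice; day 1 control replicate 1 had a squamous array and an array of the other 24. The classes were thus chosen on measured intensities, and every difference between them is a description without a test.

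The arrays came from female C57BL/6 mice aged 5 to 7 weeks that had received tube-shaped titanium dioxide nanoparticles by a single instillation into the trachea. Doses were 0 µg (control), 18, 54 or 162 µg in 40 µl, and lungs were taken at day 1 or day 28. Of the 29 mice, 7 were on 2 arrays each. All arrays used 2 colours, with lung RNA labelled by Cy5 and, in Cy3, a common reference pooled from 11 mouse cell lines; the dyes were never swapped. Values below are log2(Cy5/Cy3) ratios unless raw Cy5 is named, and a difference is the mean over squamous mice minus the mean over muscle-only mice on that scale. Per the labels, RNA came from random sections of frozen lung, and heart and liver were taken from the same animals. In tissue RNA of this kind, fewer cells of a type and less RNA per cell cannot be told apart.

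Stratified squamous epithelium lines the mouth and the oesophagus and forms the outer layer of the skin. Its surface may be a horny layer. Its basal cells carry Krt5 and Krt14 and divide. Cells that move upwards switch to other keratin pairs, Krt4 and Krt13 in the internal linings and Krt1 and Krt10 in epidermis, join by desmosomes, and end as flattened cells with a cross-linked protein shell, the cornified envelope, sealed by lipids. The alveolar lung has no such layer.

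The share of probes well above background in Cy5 was 49.1% to 57.1% on squamous arrays (median 54.0%), 51.4% to 55.7% on muscle-only arrays (median 54.1%) and 48.6% to 62.2% on the other 24 (median 55.2%). The number of arrays limits the precision.

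The classes were far apart on both genes that defined them. In raw log2 Cy5, Krt13 was 11.93, 15.82 and 16.49 (lowest, median, highest) on the 8 squamous arrays. On the muscle-only arrays it was 6.70 and 6.56 in day 1 control replicates 2 and 3, 6.52 in day 1 replicate 3 at 18 µg, and 6.82 in day 28 replicate 1 at 18 µg. The muscle-only values lay within the range of the 24 other arrays, which was 6.34 to 6.86. No array fell near the threshold, since the lowest squamous array was at 11.93 and the highest muscle-only array at 6.82. The gap in Acta1 was as wide, at 13.51 for the lowest muscle array and 7.19 for the highest other array. Acta1 did not separate the classes from each other: it was 13.51, 16.61 and 17.44 on squamous arrays, and 14.89, 14.17, 17.41 and 17.94 on the muscle-only arrays in the order above.

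**Figure D1:**
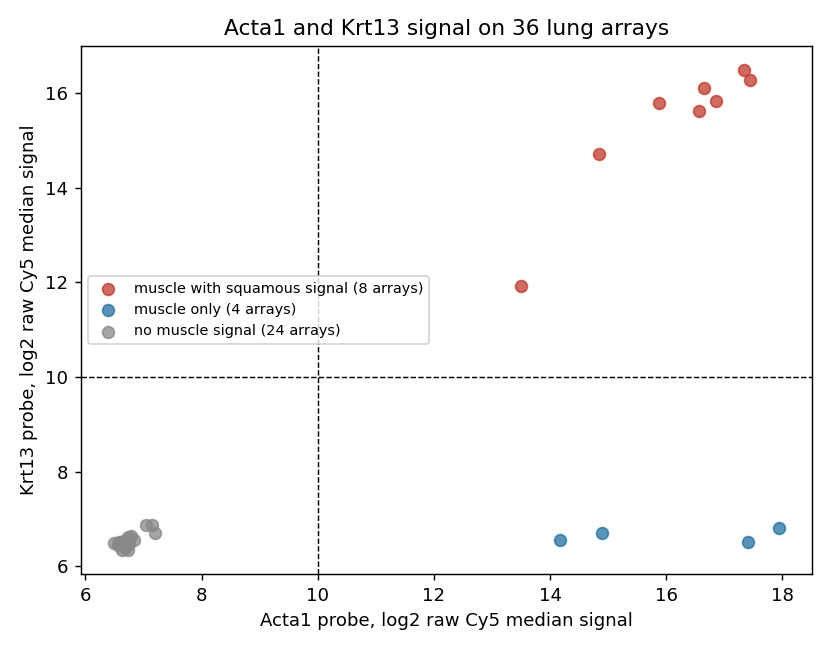
Log2 raw Cy5 signal of the Krt13 probe against that of the Acta1 probe, 1 point per array for all 36 arrays; dashed lines mark the threshold of 10. The 8 squamous arrays sit at 11.93 or above for Krt13, while the 4 muscle-only arrays sit at 6.82 or below across the same range of Acta1.

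Krt4, the partner that pairs with Krt13 in filaments, followed it, as the second Krt13 probe did. Raw log2 Cy5 of Krt4 was 9.77, 13.76 and 14.67 on the squamous arrays. It was 6.11 and 6.75 in day 1 control replicates 2 and 3, 6.16 in day 1 replicate 3 at 18 µg and 6.39 in day 28 replicate 1 at 18 µg. The groups did not overlap, although the weakest squamous array was under 10 for Krt4, so a rule on Krt4 would have moved that array to the muscle-only class. The second Krt13 probe gave 9.46, 13.13 and 14.23 on squamous arrays against 6.66 to 6.70 on muscle-only arrays. Krt13 was well above background on 8 of 8 squamous, 2 of 4 muscle-only and 2 of 24 other arrays. In the reference dye, Krt13 had a raw log2 Cy3 signal of 8.27 to 10.40 on squamous arrays and 7.95 to 8.68 on muscle-only arrays. With the same reference RNA on every array, a ratio of Krt13 therefore gives a smaller difference (7.89) than Cy5 alone after normalization (9.25).

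Squamous arrays came from 2 of 4 control mice at day 1, 1 of 3 mice at 54 µg and 1 of 4 at 162 µg on day 1, and 3 of 4 mice at 54 µg on day 28. Muscle-only arrays came from 2 of 4 control mice at day 1, 1 of 3 mice at 18 µg on day 1 and 1 of 4 at 18 µg on day 28. The control mice of day 28 (3 mice) and the mice given 162 µg at day 28 (4 mice) had no muscle array. Of the 8 groups of dose and day, the day 1 controls alone held both classes: replicates 1 and 4 were squamous and replicates 2 and 3 muscle-only. The arrays lay on 5 slides scanned in 3 sessions, and slides 2, 3 and 4 held both classes. Slides 1 and 5 held 1 and 2 squamous arrays and no muscle-only array.

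Mice on 2 arrays showed the signals to vary within an animal's label. For day 1 control replicate 1, Krt13 was 6.45 on its first array and 16.28 on its second in raw log2 Cy5, and Acta1 was 6.63 and 17.44. For day 28 replicate 1 at 54 µg, Krt13 was 11.93 and 16.49, and Acta1 was 13.51 and 17.33. The first mouse had a squamous array and an array without muscle signal, and the second had the weakest and the strongest squamous array. Across 20650 genes, which are not independent replicates, the arrays correlated at r = 0.816 within the first mouse and 0.882 within the second, against 0.962 to 0.969 within the 5 other mice on 2 arrays. After leaving out the genes higher on squamous arrays and the listed muscle genes, the 2 values were 0.870 and 0.900. Whether both arrays of a mouse used the same RNA extract is not given in the sources used here.

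Genes of squamous epithelium were higher on squamous arrays by up to 8.27 log2 units. A gene was counted as higher when its difference was above 1, or 2-fold, and no squamous array overlapped a muscle-only array. Of 20650 genes well above background on every array of at least 1 class, 166 were higher (0.804%) and 0 were lower (0%). The differences of the 166 ran from 1.06 to 8.27 with a median of 3.11, against a median of -0.02 over all 20650 genes. The weakest squamous array set this count: without it, the first array of day 28 replicate 1 at 54 µg, 352 genes were higher, among them all 166. Without that mouse altogether, 336 were. A count of 0 lower genes also rested on few arrays, since leaving out day 1 control replicate 3 gave 26 lower genes, and leaving out day 28 replicate 1 or 2 at 54 µg or day 1 control replicate 4 gave 1 each.

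Among day 1 control mice, where dose and day are the same in both classes, each of the 166 genes differed by over 2-fold in the same direction. Of the 166, 155 also did so within each of slides 2, 3 and 4. All these values share arrays with the class difference and describe the same data. A gene counted for having no overlap keeps its direction in any subset of these arrays, so only the size could vary. On 113 of the 166 genes the lowest squamous array was above the highest of the 24 arrays without muscle, and 25 were well above background on 0 of those 24. The muscle-only arrays had 42 of the 166 genes not well above background on any of the 4 and 90 on all 4.

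The largest differences were in proteins of the outer squamous layers. Lce3a, a late cornified envelope protein of keratinocytes, had a ratio of 5.55, 8.36 and 8.64 on squamous arrays and of -0.10 and -0.03 in day 1 control replicates 3 and 2, -0.24 in day 1 replicate 3 and -0.31 in day 28 replicate 1, both at 18 µg. It was not well above background on any muscle-only array and was at least 589.7-fold higher, a bound taken in Cy5 against the lowest measurable signal of each of those arrays. Lor encodes loricrin, the main protein of the cornified envelope. Its ratio was 6.22, 7.56 and 8.04 on squamous arrays. It was 1.11, 1.17, 1.01 and 1.03 in day 1 control replicates 2 and 3 and in the mice at 18 µg on day 1 and day 28. Lor thus had a measurable level in each muscle-only array, and the squamous mice were higher by 6.45 (7.53 ± 0.40 SD, n = 7, against 1.08 ± 0.07, n = 4), or 87.4-fold. In normalized Cy5 the squamous and muscle-only means of Lor were 16.87 and 7.57, further apart than in the ratio. A fold from a ratio is therefore not on the scale of the bounds taken in Cy5, and genes can rank differently by ratio and by Cy5. Krt13 differed by 7.89 (6.14 ± 0.41 against -1.75 ± 0.17), or 237-fold, with 2 of the 4 muscle-only arrays measuring it. Krt4 differed by 6.67 (6.60 ± 0.55 against -0.07 ± 0.17).

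Promoters of 4 of the higher genes are printed because they hold a match that was more frequent among the higher genes than among all genes entered. Each run is the 250 bases before the gene's start in the RefSeq table of GRCm38.p6, using the first entry of a gene. It is read 5′ to 3′ on the gene's strand. Capitals mark matches on either strand to TGANTCA and to TATAAA, the TATA box. TGANTCA is a loose form of the site read by AP-1 factors, whose usual middle base is C or G. Krt13 lies on the minus strand at chr11:100121567-100121816, Lor on the minus strand at chr3:92083143-92083392, Krtdap on the plus strand at chr7:30787655-30787904 and Serpinb5 on the plus strand at chr1:106860925-106861174.
Krt13: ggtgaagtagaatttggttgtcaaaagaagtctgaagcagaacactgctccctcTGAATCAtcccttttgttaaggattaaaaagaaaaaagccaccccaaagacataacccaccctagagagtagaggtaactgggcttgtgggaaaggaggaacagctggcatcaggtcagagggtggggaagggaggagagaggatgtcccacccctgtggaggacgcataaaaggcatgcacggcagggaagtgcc
Lor: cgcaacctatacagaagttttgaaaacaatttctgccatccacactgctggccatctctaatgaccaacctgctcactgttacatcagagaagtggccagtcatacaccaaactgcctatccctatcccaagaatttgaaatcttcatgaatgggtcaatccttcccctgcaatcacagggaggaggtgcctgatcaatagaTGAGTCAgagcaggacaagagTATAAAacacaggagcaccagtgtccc
Krtdap: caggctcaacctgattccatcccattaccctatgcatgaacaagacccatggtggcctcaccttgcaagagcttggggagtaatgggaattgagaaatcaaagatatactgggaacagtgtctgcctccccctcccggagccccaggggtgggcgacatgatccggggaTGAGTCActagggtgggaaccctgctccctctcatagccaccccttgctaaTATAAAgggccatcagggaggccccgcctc
Serpinb5: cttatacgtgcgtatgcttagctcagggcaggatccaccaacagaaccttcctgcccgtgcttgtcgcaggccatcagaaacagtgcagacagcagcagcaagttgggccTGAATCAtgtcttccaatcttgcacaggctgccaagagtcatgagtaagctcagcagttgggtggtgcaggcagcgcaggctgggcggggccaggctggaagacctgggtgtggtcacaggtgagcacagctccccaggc

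All 4 were picked for a TGANTCA match, and Lor and Krtdap also hold a TATA match. The match is TGAGTCA in Lor and Krtdap and TGAATCA, without the usual middle base, in Krt13 and Serpinb5. The windows of Lce3a, Sprr3, Lypd3, Krt5 and Tgm1, read in the same way, hold no TGANTCA. Over the higher genes, 123 of the 158 with a symbol had an entry in the table; Krt4, Crct1 and Pkp1 did not. A TGANTCA match stood in 20 of these 123 (16.3%), against 4.83% of 11151 genes entered in the comparison and 6.87% of all 27025 promoters of the same length. TATAAA stood in 25 of the 123 (20.3%), against 7.55% and 13%. Overlaps between motifs were not removed. AACNNGTT, the letters read by grainyhead factors such as Grhl3, stood in 6 (4.88%), against 3.17% and 3.63%. The median GC content was 52.8% in the 123 promoters, 58.8% in the genes entered and 52% in all. A match is a description of the letters and not a site of binding.

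Keratins and basal cell genes ranged from differences near 0 to 237-fold. Squamous genes were grouped in 9 lists of 152 genes in all, chosen with earlier results of these data known. Of these, 147 were on the array, 104 entered, and 48 were higher, with a median difference of 1.87. Over all 20650 genes 0.804% were higher, the share to set beside each list count below. Of the 104, 26 entered through the squamous arrays alone, which favours a difference. It does not fix one past 2-fold without overlap, since Krt15 and Sptlc3 overlapped and Cldn4 differed by 0.73. On the muscle-only arrays 53 of the 147 were not well above background on any array, as were 7 on the squamous arrays. In the keratin list 3 of 7 entered genes were higher, Krt13, Krt4 and Krt78 (4.55), a keratin of stratified linings. These 3 entered through the squamous arrays alone, which favours a difference, and Krt13 also defined the classes. None of the entered keratins measured on every muscle-only array was higher. Krt6b, a keratin of activated keratinocytes, differed by 1.83 with overlap, and Krt23 by 0.51.

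Of the basal list, Krt5, Krt14 and Pitx1 were higher. Krt5, the keratin of basal cells, was 2.67, 3.63 and 4.02 on squamous arrays, -0.13 and 1.72 in day 1 control replicates 2 and 3, and 0.06 and -0.04 at 18 µg on day 1 and day 28. The difference was 3.22 (3.62 ± 0.31, n = 7, against 0.41 ± 0.88, n = 4), with control replicate 3 high among the muscle-only arrays. In normalized Cy5 the squamous and muscle-only means of Krt5 were 14.47 and 7.48, further apart than in the ratio. Krt14 differed by 3.64 (2.95 ± 0.54 against -0.69 ± 0.31). Krt15, another basal keratin, differed by 4.18, but its value of 1.92 in control replicate 3 was above the weakest squamous array at 1.86. Trp63, which encodes the master regulator of basal cells, differed by 0.10 (0.34 ± 0.16 against 0.24 ± 0.46). Itga6, an integrin of the basal face, differed by -0.03. Pitx1, a transcription factor counted in the basal list, was well above background on 0 of 4 muscle-only arrays and at least 46.0-fold higher. Over the basal list 3 of 15 genes were higher and the median difference was 0.08; without the weakest array, where 1.68% of all genes were higher, 6 of 15 were, now also Krt15, Col17a1 (2.22) and Itgb4 (1.22), both of the hemidesmosome.

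**Figure D2:**
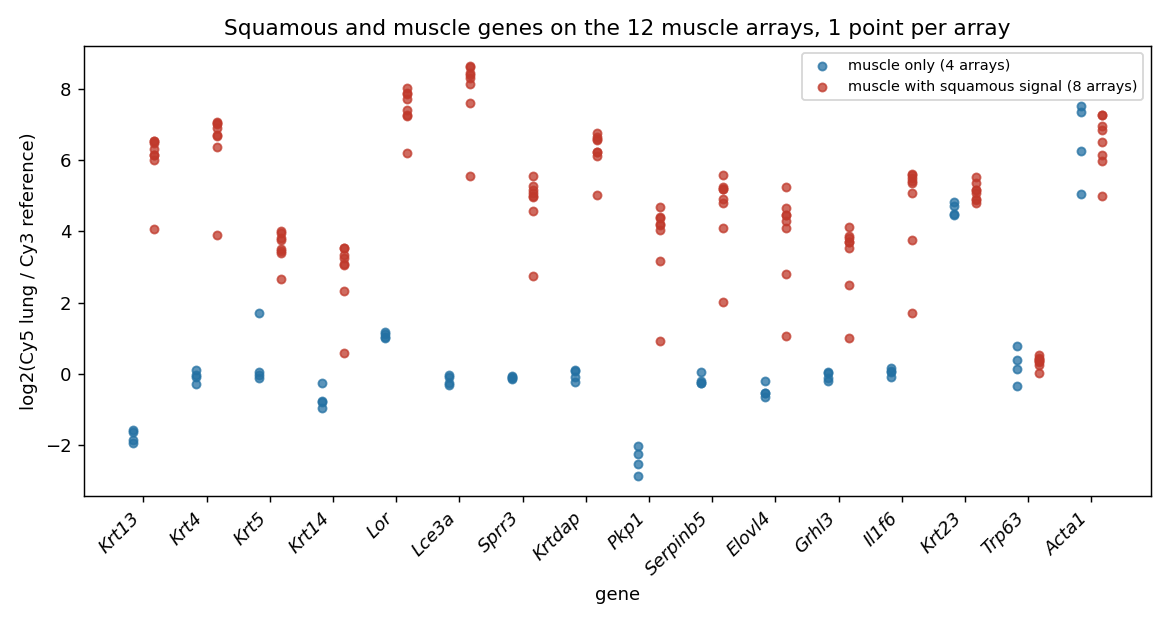
Log2(Cy5/Cy3) of 16 genes on the 12 muscle arrays, 1 point per array, blue for the 4 muscle-only and red for the 8 squamous arrays. Genes from Krt13 to Il1f6 do not overlap between the classes, with the weakest squamous array lowest, while Krt23, Trp63 and Acta1 overlap.

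Genes of the cornified envelope made up the list with the most higher members, 13 of 16, against 0.804% of all genes. Their median difference was 3.78. Of the 16, 6 entered through the squamous arrays alone, which favours a difference. Sprr3, a small proline-rich envelope protein of internal linings, was 2.76, 5.04 and 5.55 on squamous arrays and -0.05, -0.09, -0.11 and -0.13 in day 1 control replicates 2 and 3 and at 18 µg on day 1 and day 28. It was at least 76.4-fold higher. Sprr1a differed by 4.87 and Cnfn, cornifelin, by 4.17, both measured on 4 of 4 muscle-only arrays. In normalized Cy5 the squamous and muscle-only means were 12.46 and 7.57 for Sprr1a and 15.73 and 8.84 for Cnfn, which lay further apart there. Rptn, an envelope precursor measured on 0 of 4, was at least 23.4-fold higher. Tgm1, the transglutaminase that cross-links the envelope, differed by 2.78 (3.54 ± 0.68 against 0.76 ± 0.27). Involucrin (Ivl), a classical envelope protein, was well above background on 3 of 8 squamous and 0 of 4 muscle-only arrays and did not enter.

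Envelope genes of the Lce family resemble each other closely, so a probe of a member may also read its relatives. Krtdap, a keratinocyte differentiation protein, was 5.01, 6.39 and 6.76 on squamous arrays and -0.22 to 0.10 on the muscle-only ones, at least 361-fold higher. In genes listed for epidermis, 6 of 9 that entered were higher, with a median of 4.50. Of the 9, 4 entered through the squamous arrays alone, which favours a difference. Among the 6 higher ones were Lor, Asprv1 (6.12), a skin aspartic protease, and Lce1b and Lce1a1. These last were not well above background on any muscle-only array and were at least 31.0-fold and 54.5-fold higher. The keratins that mark epidermis did not follow: Krt10 differed by 0.10, and Krt1 was well above background on 2 of 8 squamous and 2 of 4 muscle-only arrays. Flg2, a filaggrin relative of the horny layer, was well above background on 0 of 36 arrays. Of 6 hair and sebaceous genes that entered, 0 were higher.

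Of the desmosome genes, Pkp1 and Perp were higher. Pkp1, the plakophilin of stratified epithelium, was 0.91, 4.20 and 4.68 on squamous arrays and -2.25 and -2.04 in day 1 control replicates 2 and 3, with -2.86 and -2.52 at 18 µg on day 1 and day 28. It differed by 6.30 (3.88 ± 0.64 against -2.42 ± 0.36), with 1 of 4 muscle-only arrays well above background, so the size is set largely against background. Perp, a desmosome protein of stratified epithelium, differed by 3.75. Dsp, desmoplakin, differed by 2.26 with overlap, and Jup and Dsg2, found in many tissues, by 0.44 and 0.07. Over the list 2 of 6 were higher; without the weakest array, where 1.68% of all genes were higher, 7 of 10 were. Dsc2, Dsg1a, Dsg1b and Dsg3 then entered through the squamous arrays alone, being well above background on 7 squamous and 0 muscle-only arrays, which favours a difference.

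Proteases and their inhibitors had 7 of 11 members higher, against 0.804% of all genes, with a median of 3.13. Of the 11, 4 entered through the squamous arrays alone, which favours a difference. Serpinb5, maspin, was 2.03, 5.05 and 5.58 on squamous arrays and -0.20 and 0.05 in day 1 control replicates 2 and 3, with -0.24 in each mouse at 18 µg. Serpinb3a, a squamous cell carcinoma antigen relative, was at least 36.0-fold higher. Spink5, an inhibitor of skin kallikreins, differed by 3.13, and the kallikreins Klk10 and Klk13 by 2.67 and 2.18. Slpi, a secreted protease inhibitor, differed by 3.42 with overlap, because the weakest squamous array, at 0.10, lay below day 28 replicate 1 at 18 µg, at 0.20.

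Enzymes of the lipid barrier were higher in 5 of 9, against 0.804% of all genes, with a median of 2.96. Of the 9, 3 entered through the squamous arrays alone, which favours a difference. Elovl4, which makes very long fatty acids, differed by 4.47 (3.99 ± 0.71 against -0.48 ± 0.20), and Cers3, a ceramide synthase, by 3.90. Both lipoxygenases that bind the barrier lipids to the envelope were higher, Alox12b by 3.19 and Aloxe3 by 2.96, and the ceramidase Acer1, measured on 0 of 4 muscle-only arrays, was at least 10.6-fold higher. Ugcg, the glucosylceramide synthase of most cells, differed by 0.75 with overlap.

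Surface and junction genes had 10 of 21 members higher, against 0.804% of all genes, with a median of 2.04. Of the 21, 3 entered through the squamous arrays alone, which favours a difference. Lypd3, a surface protein of stratified cells, was not well above background on any muscle-only array and was at least 131-fold higher in Cy5. Ly6g6c differed by 4.52, Calml3, a calmodulin relative of epithelia, by 4.38, and S100a14 by 3.44. Calml3 and S100a14 were high in day 1 control replicate 3, at 3.12 and 3.46, as Krt5 and Krt15 were, while its Krt13 ratio was -1.85. Aqp3, a water and glycerol channel, was 2.11 in that mouse and differed by 3.39 with overlap. Gjb2, a gap junction protein, differed by 2.95.

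Transcription factors were the squamous list with the second lowest median, 0.67, and 2 of 14 were higher. Of the 14, 1 entered through the squamous arrays alone, Grhl3, which favours a difference. Grhl3, a grainyhead factor of barrier formation, was 1.02, 3.70 and 4.13 on squamous arrays and -0.21 to 0.06 on muscle-only arrays, a difference of 3.46. Tfap2a, an AP-2 factor, differed by 1.59. Zfp750 and Ehf, factors of late differentiation and of epithelia, differed by 1.55 and 1.21 with overlap, and Klf4 and Sox2 by 0.67 and 0.40 with overlap. Without the weakest array 10 of 18 were higher, against 1.68% of all genes. Of the added ones, Grhl1 (2.03) and Zfp750 (1.67) were measured on all 12 muscle arrays. By contrast, 4 factors, Pax9 among them, entered through the squamous arrays alone, which favours a difference.

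In the cytokine and alarmin list 3 of 5 entered genes were higher, and none of the 3 was well above background on a muscle-only array. All 3 thus entered through the squamous arrays alone, which favours a difference. Il1f6, the interleukin 36 alpha gene, was 1.72, 5.38 and 5.62 on squamous arrays, 0.04 to 0.18 in 3 of the muscle-only arrays and -0.08 in the fourth, day 1 control replicate 3. It was at least 32.9-fold higher. The beta-defensins Defb14 and Defb4, antimicrobial peptides of linings, were at least 11.2-fold and 8.57-fold higher. Il18 differed by 0.75 and Cxcl14 by -0.22, both with overlap. Among the acute phase genes 1 of 14 was higher, Il1r2 (2.74), a decoy receptor of interleukin 1.

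**Figure D3:**
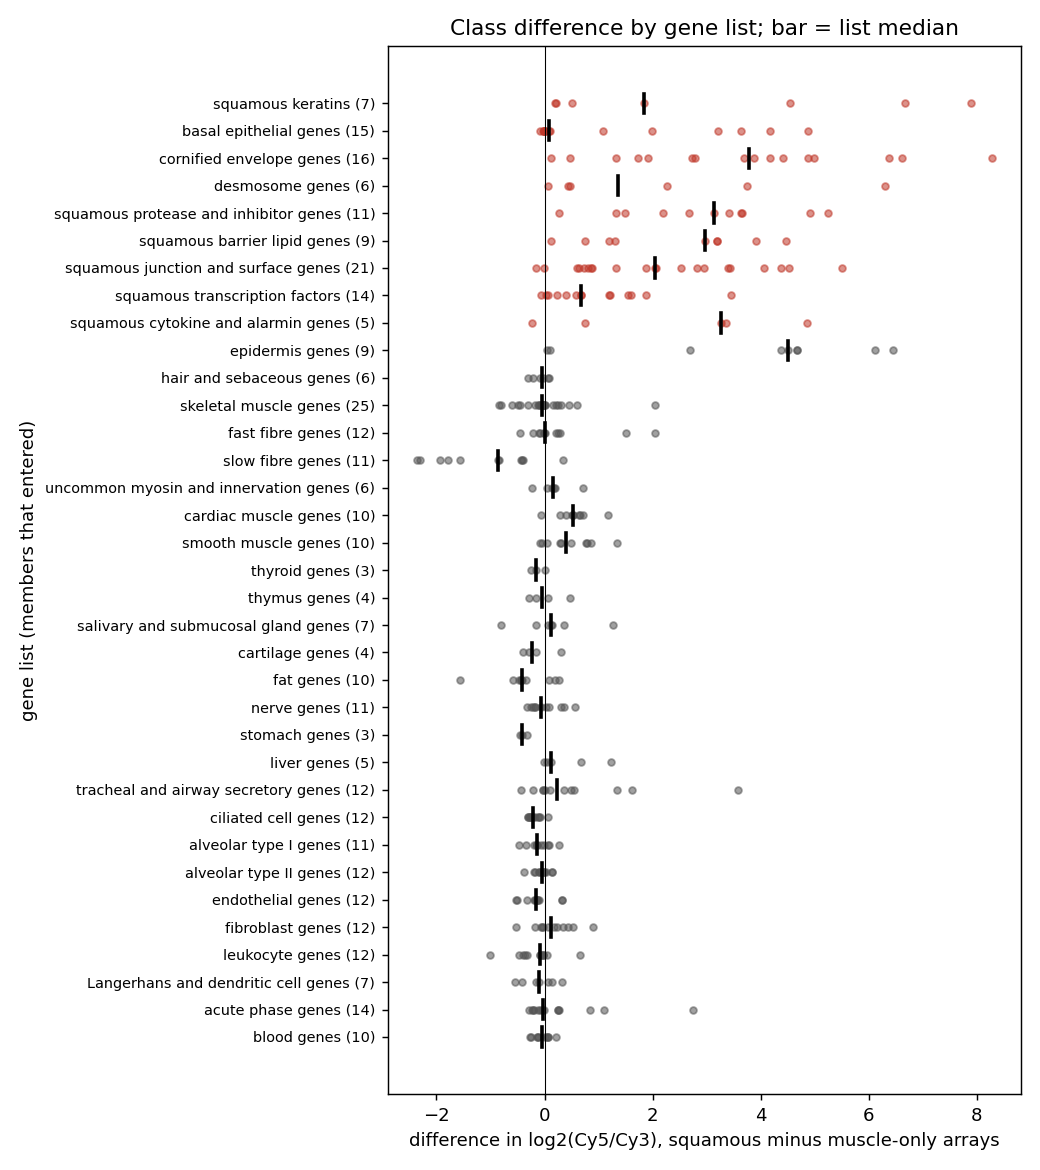
Difference in log2(Cy5/Cy3) between squamous and muscle-only arrays for each entered gene of the 35 lists, red for the 9 squamous lists; black bars are list medians, and numbers in brackets count entered genes. The squamous lists reach 8.27 and the epidermis list 6.45, while most other lists lie around 0.

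Of the 158 higher symbols, 102 were outside all lists. Crct1, a cysteine-rich protein coded beside the Lce genes, differed by 7.92, with 1 of 4 muscle-only arrays well above background. Mt4, the metallothionein of stratified squamous epithelium, differed by 6.68 (6.00 ± 0.69 against -0.67 ± 0.17), and Ada, adenosine deaminase, by 5.92 (4.25 ± 0.62 against -1.67 ± 0.23), both measured on 4 of 4. Calm4, a calmodulin relative measured on 0 of 4, was at least 93.7-fold higher. Aldh3a1, an aldehyde dehydrogenase listed with airway secretory genes, differed by 3.59 and was the single higher gene of the 12 in that list.

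Many higher genes are neighbours in the genome. In the gene order of GRCm38.p6, 23 of the 158 symbols stood in a stretch of 29 protein-coding genes on chromosome 3, of which 24 entered. This stretch, from Sprr1b to Crct1, is part of the epidermal differentiation complex, where envelope genes cluster. Over all 20650 genes 0.804% were higher, and the stretches named here were drawn around higher genes. On chromosome 7, 6 of 6 kallikreins in a row, from Klk14 to Klk9, were higher. On chromosome 1, 5 of 8 genes in a stretch of Serpinb genes were higher, and 5 of the 8 entered. Sbsn, Dmkn and Krtdap, which code secreted keratinocyte proteins, are 3 neighbours on chromosome 7.

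Of 25 skeletal muscle genes 0 were higher and 0 lower by the rule, with a median difference of -0.04. The median was not near 0 in every subset: it was 1.46 among day 1 control mice, where dose and day match, 1.51 within slide 3, 0.00 within slide 2 and -0.61 within slide 4. Acta1 differed by 1.40 among the day 1 controls, so muscle signal moved with the squamous genes there, and its part in their difference was not tested. Acta1 was 5.00, 6.68 and 7.28 on squamous arrays and 6.26 and 5.06 in day 1 control replicates 2 and 3, with 7.35 and 7.52 at 18 µg on day 1 and day 28. Slow fibre genes had a median of -0.86 with wide overlap: Myh7, the slow myosin, was 3.22, 4.34 and 5.77 on squamous arrays and 4.48 to 7.23 on muscle-only arrays. Actn3, an alpha-actinin of fast fibres, differed by 2.05 with overlap. Fat genes had a median of -0.42 and Fabp4, the fat cell carrier of fatty acids, ranged from 4.19 to 8.60 on squamous and from 5.26 to 8.74 on muscle-only arrays.

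Other tissues that could lie beside a lung were looked for by their markers. Of 16 cartilage genes on the array, 4 entered and 0 were higher (median -0.22); 6 were well above background on no squamous array, Matn1 and Sox9 among them, while Mia and Cytl1 were on all 36 arrays and Comp on 7 of 8 squamous, 4 of 4 muscle-only and 4 of 24 other arrays. Of 15 salivary and submucosal gland genes, 7 entered and 0 were higher (median 0.12); 4 were well above background on no squamous array, Smr3a among them, while Amy1, Muc5b, Ltf and Agr2 were on all 36 arrays. Of 12 thymus genes, 4 entered and 0 were higher (median -0.05). Rag1 and Ptcra were each well above background on 2 of 8 squamous and 0 of 4 muscle-only arrays. Dntt, which differed by 0.46 with overlap, Ccl25, Cd8b1 and Cd1d1 were well above background on all 36 arrays. Cardiac muscle genes, 10 of which entered, had a median difference of 0.53 with 0 higher or lower, and Myh6, Nppa, Myl7 and Tnni3 were well above background on all 36 arrays. Smooth muscle genes had 0 of 10 higher. Sftpc of alveolar type II cells differed by 0.03, Scgb1a1 of airway club cells by -0.03 and Foxj1 of ciliated cells by -0.22. Saa3 and Timp1, which answer to particles in lung, ranged from -2.93 to 3.86 and from -2.80 to 0.26 on squamous arrays, overlapping the muscle-only arrays; the doses of the classes differ.

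Across the 7 squamous mice Krt13 was lowest in the mouse with the weakest array, as Krt4 was. Normalized Cy5 of Krt13 correlated with Krt4 at r = 0.98 (rho 0.96) and with Acta1 at r = 0.80 (rho 0.86), or 0.92 without the mouse with the weakest array. These are descriptions over 7 mice that share slides and reference RNA and that were chosen on these genes. The 10 genes most like Krt13 by r, from 0.974 (Serpinb5) to 0.985 (Krt5), were Krt4, Asprv1, Lypd3, Psapl1, Krt5, Sprr3, Cnfn, Serpinb5, S100a14 and Gm10639. All but Psapl1 and Gm10639 are on the squamous or epidermis lists.

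**Figure D4:**
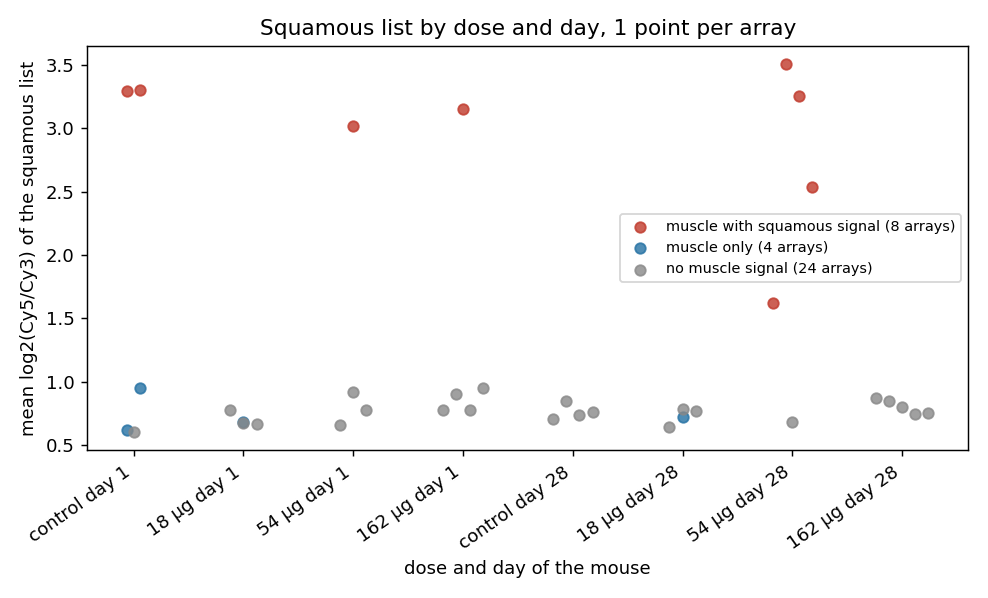
Mean log2(Cy5/Cy3) of the 104 entered squamous list genes by dose and day, 1 point per array, coloured by class. The 8 squamous arrays lie between 1.62 and 3.50, and the other 28 between 0.61 and 0.95 in every group.

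Dose and day come from the labels, so the same genes can be tested between dose groups. In a limma model over all 29 mice (23280 genes, two-sided, Benjamini-Hochberg adjusted p under 0.05), 162 µg at day 1 called 395 genes against control (1.7%) and 54 µg called 12 (0.0515%), while 18 µg called 0 (0%). At day 28 these counts were 147 (0.631%), 0 and 0, and control mice of day 28 against day 1 gave 0. Of the 107 tested squamous list genes, 2 were called, both at 162 µg on day 1, and 0 elsewhere; at an unadjusted p under 0.05 there were 6 for that comparison, 7 for 18 µg and 2 for 54 µg on day 1, 2, 58 and 4 for 18, 54 and 162 µg on day 28, and 3 between the controls. None of the 166 genes higher on squamous arrays was called in any of the 7 comparisons by limma. Several groups mixed squamous and other mice, and the SD of Krt13 was 3.94 among day 1 controls and 3.90 at 54 µg on day 28. With such a spread a change could hardly be called, so the lack of calls does not tell whether dose moved these genes.

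Squamous mice were most frequent at 54 µg on day 28. Krt13 was 5.31, 6.31, 6.02 and -1.87 in its 4 mice (replicates 1 to 4) and -1.79, -1.54 and -1.89 in the 3 control mice of day 28. Replicate 4, the mouse without muscle signal, lay within the range of the controls, and the other 3 far above them. The limma change was 5.68 ± 2.13 (SE), with an adjusted p of 0.746. The squamous list had a median change of 1.03 there, against -0.02 over all genes tested, and the 25 skeletal muscle genes had a median change of 2.97 with 0 called. Mice at 18 µg on day 1, none of them squamous, had a median change of -0.88 against controls of which 2 of 4 were squamous. There the muscle genes had a median of -1.59, and the difference in Krt13 was -3.28 ± 2.13 (SE; limma adjusted p = 0.913).

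The same comparisons were computed without the 8 squamous arrays. Those arrays were chosen for high Krt13, so a smaller change and SE of Krt13 without them is fixed by the choice and supports nothing. The limma change of Krt13 at 54 µg on day 28 was then -0.14 ± 0.22 (SE), with replicate 4 as the single mouse left in its group and assumed to vary like the others. At 18 µg on day 1 it was -0.14 ± 0.16. The median change of the squamous list, whose genes differ between the same classes, lay between -0.07 and 0.06 in all 7 comparisons, against -0.88 to 1.03 with all arrays. At 162 µg on day 1, 603 of 22944 genes were called (2.63%) in place of 395.

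**Figure D5:**
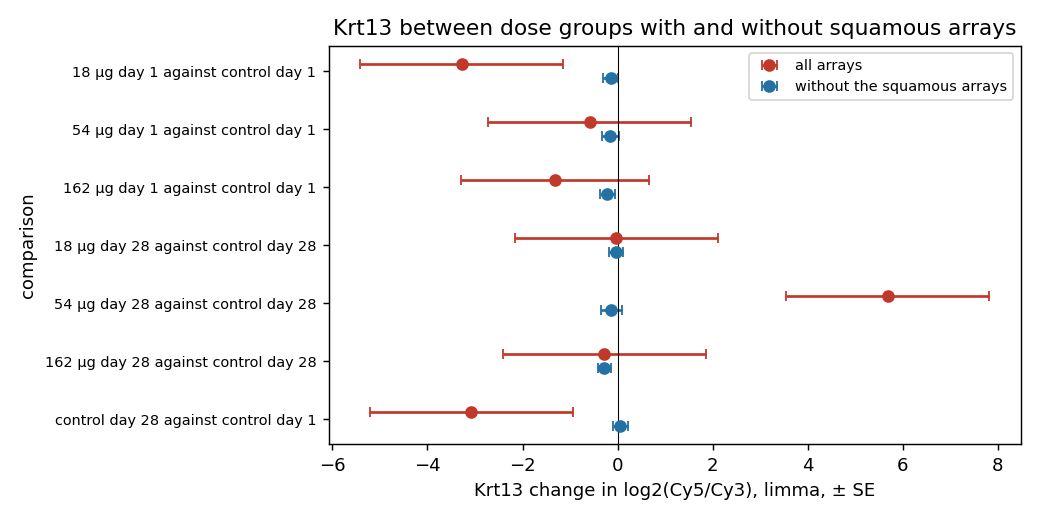
Change of Krt13 in log2(Cy5/Cy3) from the limma model for 7 comparisons, with bars of 1 SE, for all arrays (red) and without the 8 squamous arrays (blue). With all arrays the SE is 1.98 to 2.13 and the change at 54 µg on day 28 is 5.68; without them the SE is 0.15 to 0.22 and all changes lie between -0.28 and 0.06, as removing arrays chosen for Krt13 fixes.

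Cstb was called with all arrays and was not among the 166. Cstb, cystatin B, an inhibitor of lysosomal cathepsins, was -0.26, -0.36, -0.66 and -0.21 in the 4 mice at 162 µg on day 1 and between -1.33 and -0.94 in the 4 controls, so the groups did not overlap. It rose by 0.68 ± 0.13 (SE), with a limma adjusted p of 0.00529. The squamous mouse, replicate 3, was the lowest of the treated mice. The Cstb call was lost with median centring and with only the groups compared, where 0 list genes were called. The count of 2 called list genes became 1 without control replicate 1, 2 or 4 or without replicate 1, 2 or 4 at 162 µg.

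Without the squamous arrays 5 list genes were called at 162 µg on day 1, among them Cstb (0.89 ± 0.12, limma adjusted p = 0.000366), Tgm1 (1.05 ± 0.21, limma adjusted p = 0.00974), S100a14 (1.63 ± 0.38, adjusted p = 0.0242) and Klk13 (0.87 ± 0.22, adjusted p = 0.0397). Tgm1, S100a14 and Klk13 are among the genes higher on squamous arrays, by 2.78, 3.44 and 2.18. Without all 12 muscle arrays 6 were called, among 461 genes (2.05%), among them Cstb (0.91 ± 0.15), S100a14 (1.97 ± 0.43), Slpi (2.16 ± 0.51), Dmkn (1.79 ± 0.38) and Elf3 (1.06 ± 0.22). A single control mouse of day 1 was left in that fit, replicate 1 with its first array, and was assumed to vary like the other groups.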

How the data were processed

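Lung RNA of 29 mice was measured on 36 arrays. The deposited scanner files give spot and background intensity in both dyes, made by Agilent Feature Extraction 11.0.1.1 per the file headers; 0 spots were saturated. A deposited table gives the authors' log2 values, whose normalization is not given in the sources used here; its columns had medians of -0.039 to -0.017 and correlated with the ratios used here at r = 0.988 to 0.998. With limma 3.58.1 in R 4.3.3, background was corrected (normexp, offset 50) on median signals and ratios were normalized by loess within each array. Outlier spots (0.0128%) were left out. RefSeq accessions and a GRCm38.p6 table named 28026 of 55681 probes; that table was used for names and gene order.

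The probe with the highest mean raw Cy5 stood for a gene. A gene entered the comparison of classes if well above background on every array of at least 1 class, and arrays of a mouse in a class were averaged. A bound ("at least") was taken in normalized Cy5 against, on each muscle-only array, the lowest signal among probes well above background or the probe's own, whichever was higher. The dose model averaged the arrays of a mouse and tested genes well above background in at least 3 mice of a group, with 21 residual and 2.9 prior degrees of freedom. Replicate numbers follow accession order. Each mouse was taken as a separate animal, and 1 mouse (162 µg, day 28, replicate 1) has titles that say day 1. Fits were tested on simulated data.

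The classes, lists and tests were chosen with earlier results of these data known. Genes were named by rule: Krt13, Krt4, Acta1, Saa3 and Timp1; the 20 largest rises and 10 largest falls; up to 10 members of each squamous list and 4 of each other list by size of difference; the 10 genes most correlated with Krt13; and up to 5 squamous genes called in a dose comparison. Named after their values were seen were Klk14, Klk9, Dmkn, Dsc2, Dsg1a, Dsg1b, Dsg3, Pax9 and Elf3, and Ivl, Krt1, Krt10, Flg2 and the markers of other tissues. Alternatives were median centring, Cy5 alone, the deposited table, other probe and filter rules, slide as a block, day 1 arrays, and leaving out mice or classes. Results for some genes are not reported here.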

Additional observations from a re-analysis of the deposited data

Results flagged for a closer look

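Among 71 checks for a sample far from the rest of its group, 13 stood out. Chance flags about 1 in 20 groups, but most of these values belong to Krt13, Acta1, Krt4 or their lists in mice classed by the same genes, so they restate the classes and the count supports nothing. The day 1 mouse at 162 µg with a squamous array, replicate 3, was far above its 3 group mates in Krt13 (6.14 against -2.05 to -1.99), Krt4 (6.70 against 0.01 to 0.17) and Acta1 (6.50 against -2.38 to -2.18). It was also above them in the mean of the squamous list (3.15 against 0.78 to 0.95) and of the skeletal muscle list (4.98 against -0.20 to 0.46).

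At 54 µg on day 28 the mouse without muscle signal, replicate 4, was the one apart, with Krt13 at -1.87 against 5.31 to 6.31 and Acta1 at -2.36 against 5.99 to 6.97. At 18 µg on day 28 the muscle-only mouse, replicate 1, had Acta1 at 7.52 against -2.49 to -1.80 and a skeletal muscle list mean of 5.78 against 0.04 to 0.88. In that group Krt13 of replicate 3 was -2.14 against -1.66 to -1.64, a gap among low signals.

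Within the squamous mice, day 28 replicate 1 at 54 µg, which holds the weakest array, was low in Krt13 (5.31 against 6.02 to 6.53) and in Lce3d, a late envelope gene (5.50 against 6.66 to 7.16). Within the muscle-only mice, Gm94, a gene of unnamed function, was 0.38 in day 28 replicate 1 at 18 µg against -0.16 to -0.11.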

How the results depend on the processing

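Membership of the classes changed in 1 of the alternatives to the rule: Krt4 in place of Krt13 moved the weakest squamous array. The count of 166 genes higher on squamous arrays was 137 with median centring, 181 in Cy5 alone, 171 in the deposited table, 203 with no filter and 166 with the mean over probes. It was 287 with slide as a block and 402 with day 1 arrays, and, by alternatives chosen after seeing the data, 664 with day 1 control mice and 352 without the weakest squamous array. Leaving out 1 mouse at a time gave 165 to 336 higher and 0 to 26 lower genes. The count of 0 lower genes became 6 with day 1 arrays and 63 with day 1 control mice. The median difference of the squamous list was 1.20 with no filter and 1.71 to 2.00 without 1 mouse. For the named genes, 3712 of 3840 values moved by under 1 SD and 128 by more. Of the 3712, 192 come from the setting with no filter, which leaves each value unchanged. A turn of sign was counted only for named genes among the 166, and 0 were found. For the other named genes it was not counted. Where an alternative only left out arrays, mice or the filter, the call without overlap had fixed the sign of the 166 in advance.

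The 2 squamous list genes called by limma at 162 µg on day 1 became 0 with median centring and 0 with only the groups compared, 5 without the squamous arrays, 6 without all muscle arrays and 1 with the mouse of conflicting labels moved to day 1; leaving out a mouse gave 1 to 2. At 162 µg on day 28 the count of 0 became 1 without all muscle arrays and 1 with only the groups compared. The cause of these shifts was not tested. No paired analysis was possible because the replicate numbers follow accession order and tie no mice across groups. The number of arrays, 8 against 4, and genes not well above background limit what can be seen.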
